A study of Mus musculus with 8 samples.

Results

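Interferon-stimulated genes are the genes that cells switch on when interferons bind their receptors. The 45 genes described here were taken by symbol from a table of 35638 mouse genes, and all 45 were found. They comprise 37 genes grouped as type I interferon targets and 8 grouped as interferon gamma targets. The gamma group holds the guanylate-binding protein genes Gbp2, Gbp3, Gbp6 and Gbp7 and the immunity-related GTPase genes Igtp, Irgm1, Irgm2 and Iigp1. RNA was sequenced from frozen livers of mice aged 90 days after birth, on a mix of the C57/B6 and 129 strains. The KO group (4 libraries) is Arid1a Fl/Fl; Alb-cre, in which floxed Arid1a alleles meet a Cre recombinase driven by the albumin promoter, which is active in hepatocytes. The WT group (4 libraries) is Arid1a Fl/Fl, the same floxed alleles alone. The Arid1a protein belongs to the SWI/SNF complex, which moves nucleosomes, and Alb-cre is not directed at the macrophages, endothelial cells and stellate cells of the liver. Deletion was not measured by cell type.

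Type I interferons signal through the receptor pair Ifnar1 and Ifnar2 to a transcription complex that includes Stat2 and Irf9 and binds the interferon-stimulated response element (ISRE) of target promoters. Interferon gamma signals through Ifngr1 and Ifngr2 to the gamma-activated site (GAS) of target promoters, and it also acts through Irf1. Many target genes respond to both kinds, so the grouping into type I and gamma is a convention. Hepatocytes, Kupffer cells (the resident macrophages of the liver) and endothelial cells all carry interferon receptors, and liver tissue transcribes part of these genes without infection.

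Values are FPKM, the fragments of a gene scaled to its length and to the reads of its library. Depth was estimated from the steps between low values at 14400000 ± 710000 reads in KO and 13000000 ± 570000 reads in WT (SD, n = 4 each). Whether each replicate is a different animal is not stated in the labels, so a p-value here gauges sample-to-sample spread that could be technical. Arid1a was at 2.70, 2.86, 3.46 and 2.59 FPKM in KO 1 to 4, against 5.16, 8.38, 3.998 and 4.10 FPKM in WT 1 to 4. No KO library reached the lowest WT library (exact two-sided permutation p = 0.0286, the smallest that 70 splits allow), while the adjusted p over all tested genes was 0.316 (limma). The values cover the whole gene, and the floxed exons are not named in the labels. Of 9 hepatocyte markers, Alb among them, 0 passed the test in either direction, and 0 had an unadjusted p under 0.05.

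Promoter sequences are shown for the 3 members that passed the test, because they hold or lack the response element in different ways. Each runs from 250 bases before to 50 bases after the annotated start, is written 5′ to 3′ on the strand of the gene, and comes from RefSeq for GRCm38.p6. Capitals mark the ISRE, searched as GAAA, then 2 bases of any kind, then GAAA, on both strands. Neighbouring copies can overlap by sharing a GAAA, and a copy on the opposite strand reads as TTTC here. Irf7 lies on the minus strand at chr7:141266375-141266674, and its window holds no ISRE.
Irf7: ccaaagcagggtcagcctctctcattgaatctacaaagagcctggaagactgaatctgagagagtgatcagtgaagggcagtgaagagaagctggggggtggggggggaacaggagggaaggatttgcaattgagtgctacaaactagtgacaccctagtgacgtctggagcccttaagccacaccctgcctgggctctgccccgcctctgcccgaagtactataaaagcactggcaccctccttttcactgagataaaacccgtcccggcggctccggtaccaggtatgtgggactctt
Oas1a lies on the minus strand at chr5:120907476-120907775, and its window holds 2 overlapping copies.
Oas1a: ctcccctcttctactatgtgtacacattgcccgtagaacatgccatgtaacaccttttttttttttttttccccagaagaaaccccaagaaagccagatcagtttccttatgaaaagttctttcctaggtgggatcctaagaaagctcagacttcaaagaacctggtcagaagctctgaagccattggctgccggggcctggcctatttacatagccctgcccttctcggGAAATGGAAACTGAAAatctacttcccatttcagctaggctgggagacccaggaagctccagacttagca
Gbp2 lies on the plus strand at chr3:142620413-142620712, and its window holds 1 copy, on the opposite strand.
Gbp2: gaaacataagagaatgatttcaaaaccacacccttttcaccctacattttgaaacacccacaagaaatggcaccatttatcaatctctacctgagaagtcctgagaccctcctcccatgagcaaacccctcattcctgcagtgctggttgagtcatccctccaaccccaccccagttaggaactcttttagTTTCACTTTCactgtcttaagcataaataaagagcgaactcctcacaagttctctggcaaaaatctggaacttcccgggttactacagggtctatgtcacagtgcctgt

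RefSeq promoters were searched for 31 of the 45 members. No promoter was matched for Usp18, Dhx58, Zbp1, Oas1b, Oas2, Mx1, Mx2, Ly6e, Parp9, Parp14, Rtp4, Ifi27l2a and Gbp6. Iigp1 was left out before the search, not for want of a match, and no sequence is shown for it. The ISRE was present in 20 of the 31 (64.5%), against 1079 of 27025 promoters of all genes (3.99%). It was found in 14 of 25 type I members and in 6 of 6 gamma members. The other gamma members, Gbp6 and Iigp1, were not searched. With 1 mismatch allowed among the 8 fixed letters it was in 96.8% of member promoters, against 38.88% of all promoters. The GAS, searched as TTC, then 3 bases of any kind, then GAA, on both strands, was in 10 of the 31 (32.3%), against 9.55% of all promoters. The shorter stretches that follow carry copies of 5 members with changes of at least 0.55 (Oas1g, Gbp3, Ifit3, Ifit3b and Bst2), then of Isg15, shown for its 3 copies, and of 4 members with smaller changes, each with 10 bases on either side and read on the strand of the motif. Oas1g has the same 36 bases as Oas1a, Isg15 has 3 overlapping copies in 1 run, and Ifit3 and its near copy Ifit3b share both of their stretches. On GRCm38.p6 the stretches lie at chr5:120887606-120887641 for Oas1g, chr3:142559989-142560024 for Gbp3, chr19:34583363-34583392 and chr19:34583397-34583426 for Ifit3, and chr19:34607759-34607788 and chr19:34607793-34607822 for Ifit3b. Those of the other members lie at chr8:71537577-71537612 for Bst2, chr4:156200865-156200906 for Isg15, chr10:128270266-128270295 for Stat2, chr17:78882535-78882564 for Eif2ak2, chr11:58199512-58199541 for Igtp and chr11:48871425-48871460 for Irgm1. Each was read on the minus strand except that of Igtp, on the plus strand.
Oas1g: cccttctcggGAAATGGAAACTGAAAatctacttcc
Gbp3: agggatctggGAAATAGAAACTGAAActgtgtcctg
Ifit3 and Ifit3b, first stretch: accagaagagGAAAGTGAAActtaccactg
Ifit3 and Ifit3b, second stretch: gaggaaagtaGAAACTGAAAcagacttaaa
Bst2: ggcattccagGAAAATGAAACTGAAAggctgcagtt
Isg15: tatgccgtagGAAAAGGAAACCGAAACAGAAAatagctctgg
Stat2: ctagggaaagGAAACTGAAAccagggtgcg
Eif2ak2: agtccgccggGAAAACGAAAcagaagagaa
Igtp: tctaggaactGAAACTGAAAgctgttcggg
Irgm1: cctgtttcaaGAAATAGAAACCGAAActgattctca
The last 4 members had log2 changes between -0.077 and 0.20. Members with an ISRE in the window had a median log2 change of 0.60, with 8 of 20 free of overlap between the groups. Members without one had a median of 0.53, with 6 of 11 free of overlap. KO was the higher group in each of these, and the same order was found in 3.57% of all genes above 0. Members that were not searched, Iigp1 among them (log2 change -0.29), are in neither set. A match describes the letters only, and no match says nothing about binding outside these windows.

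Most of the interferon-stimulated genes had higher values in KO livers, and 3 of them rose past the test: Irf7, a transcription factor that drives interferon genes, Oas1a, an enzyme gene of the antiviral 2-5A pathway, and Gbp2, a guanylate-binding protein gene. Groups were compared with limma on log2(FPKM + 1) over the 11266 genes with a mean of at least 1 FPKM, adjusted by Benjamini-Hochberg over these genes, and called at an adjusted p under 0.05. Log2 changes are KO minus WT, given ± SE. A change on this scale understates the fold of genes with low values. In bulk tissue, more cells of a type and more RNA per cell cannot be told apart. Among the members 3 were called higher in KO and 0 lower, against 0.408% and 0.355% of all tested genes. The test reached 35 members, since 10 had a mean under 1 FPKM. Of the 35, 5 (Oas1a, Gbp2, Gbp3, Ifit3b and Rsad2) passed that minimum only through their KO values and had a WT mean under 1 FPKM. Without adjustment, 14 members had p under 0.05 with KO higher and 0 with KO lower, against 4.99% and 4.82% of all tested genes. Of those 14, 9 had a WT mean of at least 1 FPKM. Of the 3 called members, only Irf7 did.

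Counts that need no minimum cover all 45 members. The log2 change was positive in 41 members and negative in 4 (Iigp1, Ifi35, Igtp and Eif2ak2), against a positive change in 51.5% of the 27571 genes with any value above 0. With libraries scaled to equal sums of FPKM the change was positive in 36 members, as Stat2, Ddx58, Dhx58, Parp9 and Parp14 turned slightly negative, and 3 other scalings gave 40 to 42. When 1 library was left out the number ran from 38 to 43. By mean FPKM, 5 members were lower in KO (Iigp1, Ifi35, Igtp, Dhx58 and Parp9), so the directions of Eif2ak2, Dhx58 and Parp9 depend on the scale. Every KO library lay above every WT library in 16 members, against 3.57% of those genes. The opposite order was found in 0 members, against 2.43%. The shares of 51.5%, 3.57% and 2.43% also apply to the counts by family that follow. The median log2 change of the members was 0.53, against 0.0016 over all genes above 0. The median was 0.53 in the type I members, of which 14 of 37 were free of overlap, and 0.54 in the gamma members, of which 2 of 8 were.

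**Figure D1:**
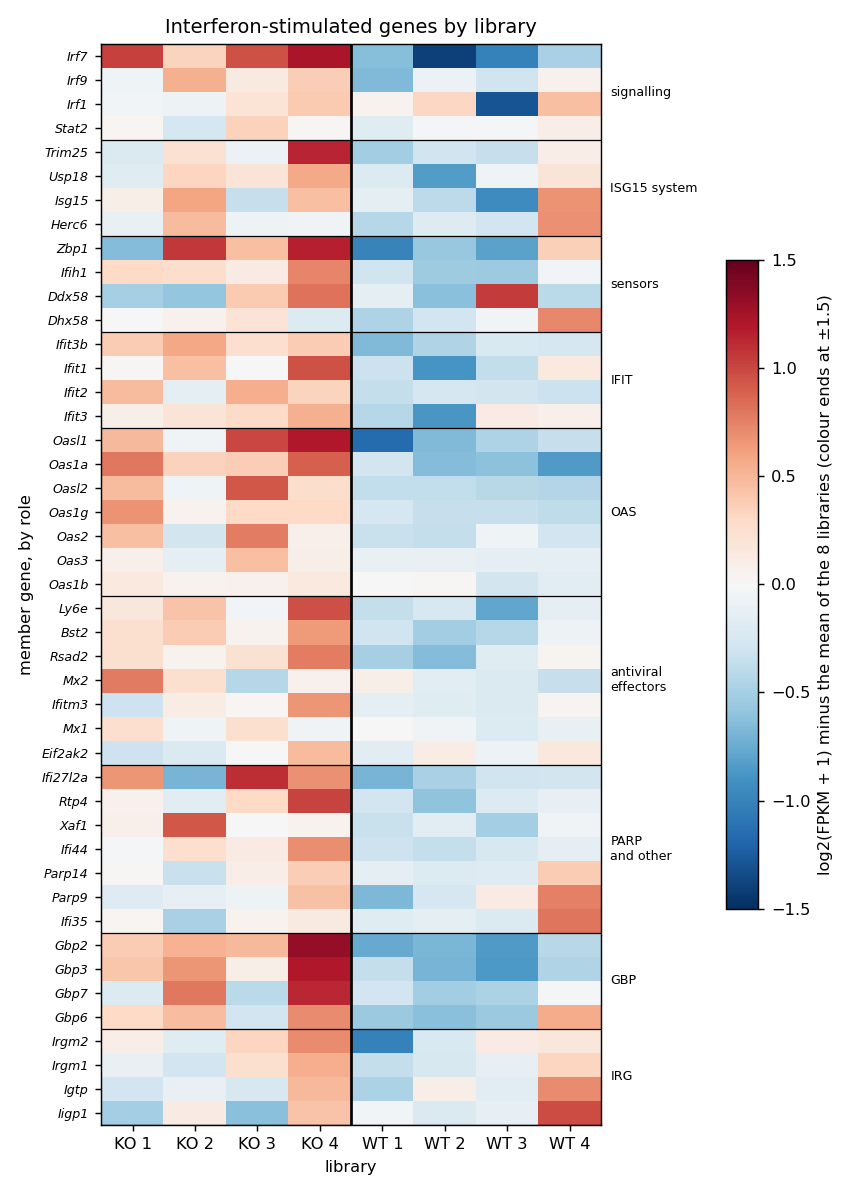
Colour gives the log2(FPKM + 1) of each of the 45 members in each library minus its mean over the 8 libraries, with rows ordered by role and KO libraries left of WT libraries. Red dominates in the KO columns and blue in the WT columns for Irf7, the OAS genes and the GBP genes, while the IRG rows are reddest in KO 4 and WT 4.

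Among the signalling factors, Irf7 rose in KO and its partners Irf9, Stat2 and Irf1 did not pass the test. Irf7, which amplifies type I interferon transcription, was at 14.4, 8.56, 13.6 and 16.7 FPKM in KO 1 to 4, against 3.86, 1.86, 2.75 and 4.39 FPKM in WT 1 to 4. The lowest KO library, KO 2, stood above the highest WT library, WT 4. The means of 13.3 ± 3.44 FPKM in KO and 3.22 ± 1.13 FPKM in WT (SD, n = 4 each) gave a 4.14-fold ratio and a log2 change of 1.77 ± 0.26 (SE; limma adjusted p = 0.0176). The adjusted p exceeded 0.05 without KO 1, KO 3, KO 4 or WT 3, and reached 0.0684 without WT 3. Irf7 spans bases 141262706 to 141266481 of chromosome 7 (GRCm38), and 1.2% of its exonic bases overlap Phrf1 on the opposite strand.

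Irf9, the DNA-binding partner of Stat2, was at 3.20, 5.33, 3.82 and 4.65 FPKM in KO, against 1.77, 3.13, 2.57 and 3.595 FPKM in WT. KO 1 lay within the WT range, and the log2 change of 0.49 ± 0.22 had an adjusted p of 0.502. Stat2, which carries the transactivating function and has the highest mean level of the signalling members over the 8 libraries, was at 11.1, 8.91, 14.0 and 10.98 FPKM in KO, against 9.49, 10.6, 10.7 and 11.8 FPKM in WT. Its groups overlapped widely, with a log2 change of 0.061 ± 0.18 (adjusted p = 0.965). Irf1, which mediates part of the gamma response, averaged 7.33 ± 1.30 FPKM in KO and 6.70 ± 3.23 FPKM in WT (adjusted p = 0.915), and WT 3 with 2.10 FPKM was the lowest of the 8 libraries.

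The 2-5A synthetase (OAS) genes had positive changes in 7 of 7 members, beside 51.5% of all genes above 0. Of the 7, 5 were free of overlap with KO higher, beside 3.57% of all genes above 0. Of these 5, Oasl2, Oas1g and Oas1b had means under 1 FPKM in both groups. OAS genes encode enzymes, or relatives of them, that sense double-stranded RNA and activate RNase L. Oas1a rose to 2.25, 1.38, 1.42 and 2.49 FPKM in KO 1 to 4, against 0.545, 0.193, 0.229 and 0.0417 FPKM in WT 1 to 4. No KO library fell under 1.38 FPKM and no WT library exceeded 0.545 FPKM. The means of 1.89 ± 0.570 FPKM in KO and 0.252 ± 0.212 FPKM in WT (SD, n = 4 each) gave a log2 change of 1.20 ± 0.21 (limma adjusted p = 0.0361). Leaving out any library except KO 2 took the adjusted p above 0.05, up to 0.105. Oas1a passed the minimum for the test only through its KO values, and its call was lost without a minimum. Of the 50-base words of the Oas1a transcript, 57.6% also occur in Oas1g, so reads of the 2 genes may have been split between them.

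Oasl1, a relative without synthetase activity in the mouse, was at 4.66, 2.88, 7.07 and 8.25 FPKM in KO, against 0.806, 1.55, 1.93 and 2.19 FPKM in WT. The groups did not overlap, and the log2 change of 1.31 ± 0.30 had an adjusted p of 0.106, which became 0.0370 without KO 2. The other 5 OAS genes stayed under a mean of 1 FPKM and were not tested. Oasl2 ranged from 0.351 to 1.69 FPKM in KO, against 0.0378 to 0.0945 FPKM in WT, and Oas1g from 0.404 to 1.14 FPKM in KO, against 0.0336 to 0.135 FPKM in WT. Oas1b, annotated as a polymorphic pseudogene, ranged from 0.257 to 0.343 FPKM in KO, against 0 to 0.227 FPKM in WT. Oas2 averaged 0.784 ± 0.551 FPKM in KO and 0.204 ± 0.118 FPKM in WT, and Oas3 0.218 ± 0.214 FPKM in KO and 0.0163 ± 0.00616 FPKM in WT (SD, n = 4 each). In both of these KO 2 lay inside or under the WT range.

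The IFIT genes, whose proteins bind foreign RNA and block its translation, had positive changes in 4 of 4 members, and 0 passed the test. Ifit3b was at 1.56, 1.94, 1.34 and 1.55 FPKM in KO, against 0.238, 0.442, 0.681 and 0.654 FPKM in WT. Its groups lay far apart relative to their spread, with a log2 change of 0.79 ± 0.17 and an adjusted p of 0.0955. Ifit3b passed the minimum for the test only through its KO values. Ifit3 was at 2.60, 2.88, 3.12 and 3.91 FPKM in KO, against 1.51, 0.844, 2.69 and 2.57 FPKM in WT. WT 3 lay above KO 1, and the log2 change of 0.55 ± 0.25 had an adjusted p of 0.511. Ifit3 and Ifit3b share 51.2% and 45.0% of their own 50-base words with other genes, almost all with each other, so the division of reads between them is uncertain. Ifit1 was at 2.73, 3.998, 2.67 and 6.13 FPKM in KO, against 1.93, 0.993, 1.84 and 3.05 FPKM in WT. WT 4 lay above KO 1 and KO 3 (log2 change 0.72 ± 0.28, adjusted p = 0.424). Ifit2, under the minimum for the test, ranged from 0.333 to 1.13 FPKM in KO, against 0.139 to 0.226 FPKM in WT, without overlap.

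**Figure D2:**
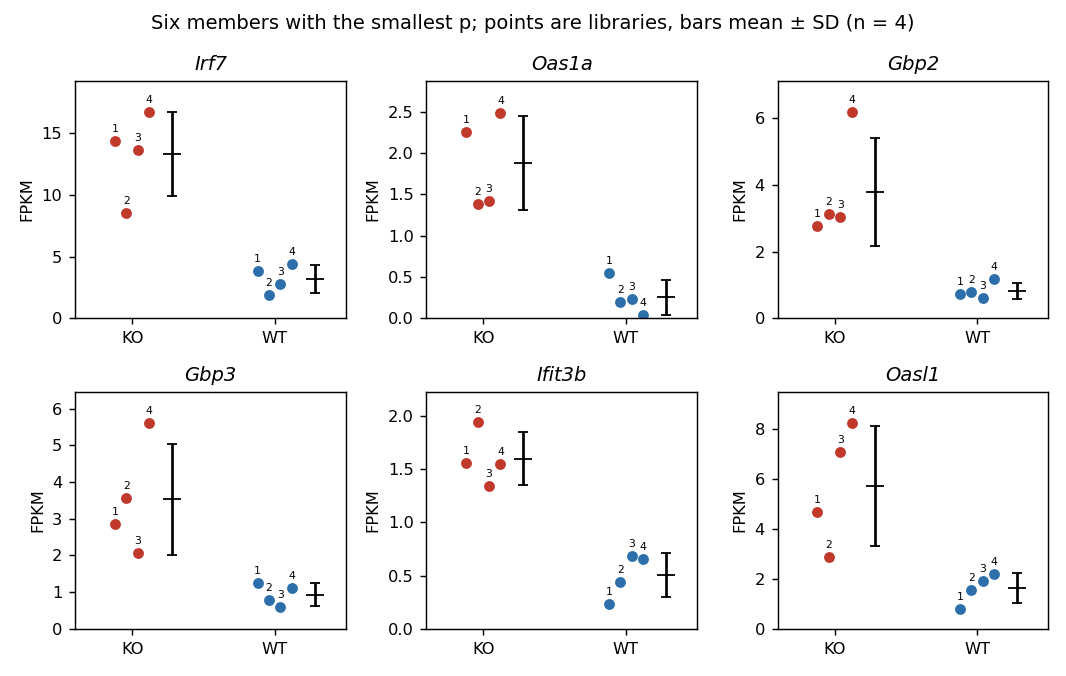
FPKM of the 6 members with the smallest p, with KO left of WT, 1 point per library with its replicate number, and bars for mean ± SD (n = 4). In each of the 6 panels the lowest KO point is above the highest WT point, and KO 4 is the highest point for all of them except Ifit3b.

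The cytosolic sensors had positive changes on the log2(FPKM + 1) scale in 4 of 4 members, 2 of them near 0, and 0 passed the test. Ifih1, the MDA5 sensor of long double-stranded RNA, was at 7.51, 7.34, 6.55 and 10.5 FPKM in KO, against 4.62, 3.77, 3.75 and 5.73 FPKM in WT. Every KO library exceeded every WT library, with a log2 change of 0.71 ± 0.20 (adjusted p = 0.188). Zbp1, a sensor of Z-form nucleic acids that can start cell death, was at 0.940, 5.32, 3.14 and 5.81 FPKM in KO, against 0.514, 1.05, 0.745 and 2.90 FPKM in WT. KO 1 lay among the WT values, and the log2 change of 1.01 had an SE of 0.43 (adjusted p = 0.483). Ddx58, the RIG-I sensor, averaged 4.86 ± 2.75 FPKM in KO and 4.79 ± 3.47 FPKM in WT, and Dhx58, the LGP2 regulator of both RNA sensors, 1.25 ± 0.262 FPKM in KO and 1.30 ± 0.917 FPKM in WT (SD, n = 4 each). The mean FPKM of Dhx58 was thus lower in KO while its mean on the log2 scale was slightly higher, and the signs of Ddx58 and Dhx58 turned negative with equal sums.

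The ISG15 system attaches a ubiquitin-like protein to others, with Isg15 as the modifier, Herc6 as a ligase, Trim25 as a ligase that activates RIG-I, and Usp18 as the enzyme that removes Isg15 and damps receptor signalling. All 4 changes were positive, and 0 had an unadjusted p under 0.05. Trim25, the member with the highest level, was at 6.56, 9.30, 7.31 and 18.5 FPKM in KO, against 5.11, 6.16, 5.92 and 8.46 FPKM in WT. KO 4 stood far above the other KO libraries, and the log2 change of 0.53 ± 0.30 had an adjusted p of 0.640. The other changes ran from 0.12 for Herc6 to 0.45 for Usp18. Isg15 itself averaged 7.49 ± 2.33 FPKM in KO and 5.80 ± 3.28 FPKM in WT (SD, n = 4 each), and the highest of its 8 values, 10.4 FPKM, was in WT 4.

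Among the other antiviral effectors the most abundant members were membrane proteins, and 3 of the 7 genes were free of overlap without passing the test. Ly6e, a membrane-anchored protein that hinders coronavirus fusion, was at 114, 136, 98.7 and 199 FPKM in KO, against 78.7, 85.4, 58.6 and 91.2 FPKM in WT. The groups of Ly6e were apart, and its log2 change was 0.77 ± 0.25 (adjusted p = 0.282). Bst2, the tetherin that holds budding virus at the cell surface, was at 87.3, 96.4, 77.1 and 116 FPKM in KO, against 60.1, 51.5, 55.0 and 70.4 FPKM in WT. The groups did not overlap, with a log2 change of 0.66 ± 0.18 and an adjusted p of 0.189, or 0.0394 after quantile normalization. Rsad2, the viperin gene, was at 1.28, 0.993, 1.26 and 2.26 FPKM in KO, against 0.362, 0.221, 0.695 and 0.979 FPKM in WT, again without overlap (log2 change 0.65 ± 0.23, adjusted p = 0.345). Rsad2 passed the minimum for the test only through its KO values.

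Ifitm3, which blocks virus entry from endosomes, had the highest level of all members. It was at 142, 191, 180 and 281 FPKM in KO, against 161, 155, 152 and 182 FPKM in WT. KO 1 was the lowest of the 8 libraries and KO 4 the highest, and the log2 change of 0.25 ± 0.22 had an adjusted p of 0.823. Eif2ak2, the kinase PKR, averaged 2.71 ± 0.964 FPKM in KO and 2.69 ± 0.374 FPKM in WT (SD, n = 4 each). Mx2, an Mx GTPase gene annotated as a polymorphic pseudogene, averaged 4.17 ± 1.78 FPKM in KO and 2.97 ± 0.510 FPKM in WT (adjusted p = 0.790). Mx1 stayed under 0.47 FPKM in each library and was not tested.

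Of the 7 remaining type I members, 0 passed the test and 2, both of low level, were free of overlap. Rtp4, an interferon-induced chaperone of receptors, was at 4.34, 3.56, 5.25 and 9.32 FPKM in KO, against 3.19, 2.37, 3.41 and 3.67 FPKM in WT. KO 2 lay just under WT 4, and the log2 change of 0.61 ± 0.26 had an adjusted p of 0.483. Ifi35, an interferon-induced leucine zipper protein, was at 7.41, 4.89, 7.53 and 8.06 FPKM in KO, against 6.23, 6.45, 6.10 and 13.3 FPKM in WT. WT 4 was the highest of its 8 values, and the log2 change was -0.13 ± 0.27 (adjusted p = 0.944). Without WT 4 it was 0.12, and 16.8% of the exonic bases of Ifi35 overlap the opposite-strand gene Gm11626. The ADP-ribosyltransferase genes Parp9 and Parp14 had changes of 0.023 and 0.083. Below the minimum, Ifi44 ranged from 0.566 to 1.59 FPKM in KO, against 0.248 to 0.443 FPKM in WT. Xaf1, a promoter of apoptosis, ranged from 0.515 to 1.91 FPKM in KO, against 0.0643 to 0.463 FPKM in WT. Ifi27l2a was listed at 0 in KO 2 and ranged from 1.56 to 2.50 FPKM in the other KO libraries, against 0 to 0.345 FPKM in WT.

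**Figure D3:**
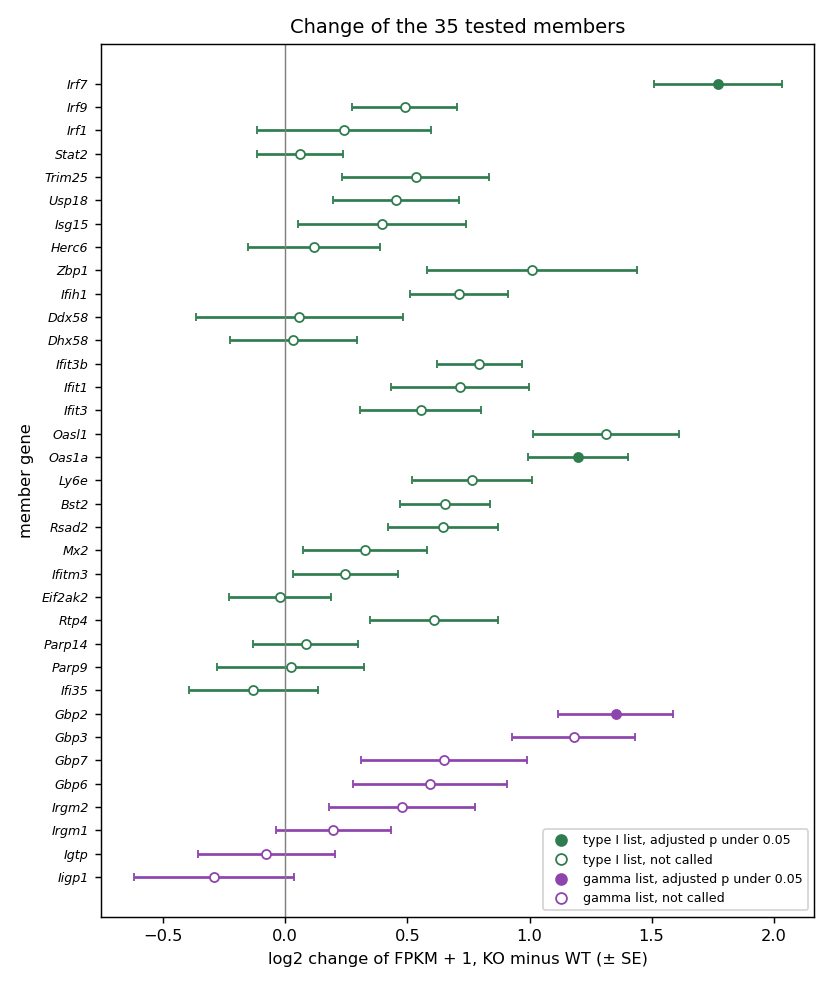
Log2 change of FPKM + 1, KO minus WT, with its SE for the 35 tested members, ordered by role, with type I members in green and gamma members in purple. The 3 filled points are Irf7 at 1.77, Oas1a at 1.20 and Gbp2 at 1.35, and the bottom rows, the IRG genes, lie between -0.29 and 0.48.

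The 4 guanylate-binding protein (GBP) genes, whose large GTPases attack vacuoles of intracellular pathogens, had positive changes with a median of 0.92, and 1 of them rose past the test. Gbp2 was at 2.76, 3.14, 3.05 and 6.19 FPKM in KO 1 to 4, against 0.714, 0.789, 0.609 and 1.16 FPKM in WT 1 to 4. KO 4 stood well above the other KO libraries, and all 4 were above WT 4. The means of 3.79 ± 1.61 FPKM in KO and 0.819 ± 0.241 FPKM in WT (SD, n = 4 each) gave a 4.62-fold ratio and a log2 change of 1.35 ± 0.24 (limma adjusted p = 0.0384). Leaving out any library except KO 2 took the adjusted p above 0.05, up to 0.121. Gbp2 passed the minimum for the test only through its KO values, and its call was lost without a minimum. Gbp2 spans bases 142620602 to 142638008 of chromosome 3 (GRCm38) and shares 2.0% of its 50-base words with Gbp2b.

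Gbp3, its neighbour on chromosome 3, was at 2.85, 3.57, 2.07 and 5.62 FPKM in KO, against 1.26, 0.783, 0.588 and 1.11 FPKM in WT. The groups did not overlap, and the log2 change of 1.18 ± 0.25 had an adjusted p of 0.0866, or 0.0488 with protein-coding sums made equal. Gbp3 also passed the minimum only through its KO values. Gbp7 was at 3.65, 8.30, 3.07 and 10.7 FPKM in KO, against 3.41, 2.76, 2.86 and 4.31 FPKM in WT. Only KO 2 and KO 4 lay above the WT range for Gbp7 (log2 change 0.65 ± 0.34, adjusted p = 0.603). Gbp6 averaged 2.43 ± 0.927 FPKM in KO and 1.36 ± 1.09 FPKM in WT (SD, n = 4 each; adjusted p = 0.612). Of the 50-base words of Gbp6, 70.7% occur in other genes, most of them in Gm43302, so its reads may have been split.

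The 4 immunity-related GTPase (IRG) genes, which act on pathogen vacuoles and on autophagy, had 2 positive and 2 negative changes with a median of 0.060, and 0 had an unadjusted p under 0.05. That median was -0.044 with equal sums and between 0.017 and 0.11 under the other 3 scalings. When 1 library was left out it ran from -0.10 without KO 4 to 0.24 without WT 4, and 3 of the 4 changes were positive without KO 1 or without WT 4. Iigp1, the most abundant gamma member, was at 25.5, 40.1, 23.4 and 49.9 FPKM in KO, against 35.7, 31.4, 33.6 and 73.3 FPKM in WT. Its highest value was in WT 4 and its lowest in KO 3, with a log2 change of -0.29 ± 0.33 (adjusted p = 0.875). The changes of the others were -0.077 for Igtp, 0.20 for Irgm1 and 0.48 for Irgm2. Igtp and Irgm2 overlap on the same strand. The difference between the GBP and IRG families was not tested.

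The mean log2(FPKM + 1) of all type I members was 2.23, 2.20, 2.33 and 2.59 in KO 1 to 4, against 1.73, 1.71, 1.78 and 2.09 in WT 1 to 4. Every KO library stood above every WT library, and replicate 4 was the highest in both groups. For the gamma members the mean was 2.82, 3.05, 2.75 and 3.62 in KO, against 2.33, 2.41, 2.43 and 3.04 in WT. Here the groups overlapped, since WT 4 exceeded KO 1 and KO 3. The difference between the group means, KO minus WT, was 0.51 for either list. The OAS mean was 1.13, 0.67, 1.24 and 1.11 in KO, against 0.33, 0.33, 0.36 and 0.32 in WT. The GBP mean was 1.95, 2.34, 1.70 and 2.82 in KO, against 1.24, 1.098, 1.05 and 1.65 in WT. The order of the KO libraries differed between these families, with KO 2 the lowest for OAS and the second highest for GBP. The IRG mean was 3.68, 3.77, 3.81 and 4.42 in KO, against 3.41, 3.73, 3.81 and 4.43 in WT.

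Replicate 4 led within both groups. KO 4 held the highest KO value in 29 of 45 members and in 8 of 8 gamma members. WT 4 held the highest WT value in 32 of 45 members and in 7 of 8 gamma members. The summed FPKM of protein-coding genes was also highest in these libraries, at 285578 in KO 4, against 200869 to 245742 in the other KO libraries, and at 271204 in WT 4, against 207363 to 223543 in the other WT libraries. With protein-coding sums made equal, 4 members were called higher (Irf7, Oas1a, Gbp2 and Gbp3) and the medians were 0.50 for type I and 0.51 for gamma. Without KO 4 the medians were 0.38 and 0.35, and without WT 4 they were 0.60 and 0.68. The labels name no sequencing batch, so no value within a batch can be given.

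**Figure D4:**
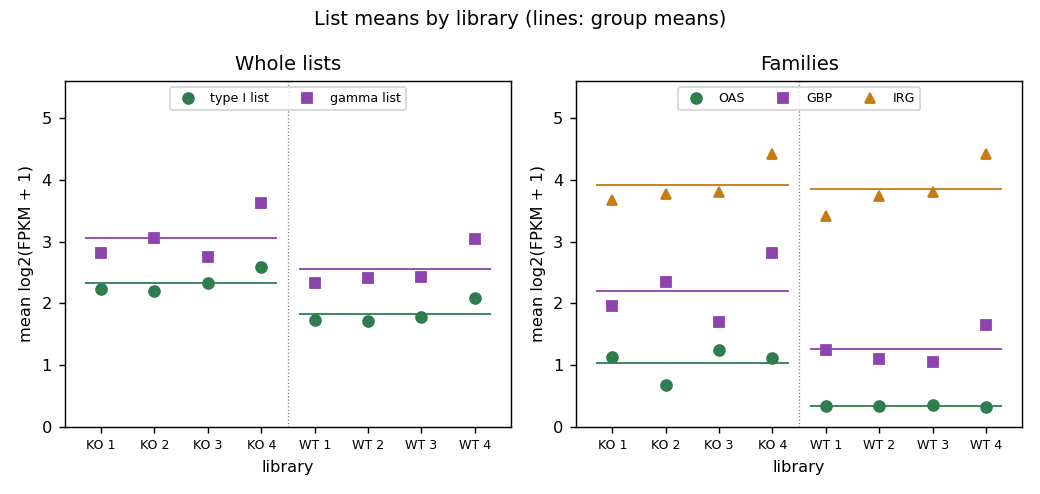
Mean log2(FPKM + 1) per library, KO left of WT, for the type I and gamma members (left) and for the OAS, GBP and IRG families (right), with lines at the group means. The type I points of KO (2.20 to 2.59) lie above those of WT (1.71 to 2.09), whereas the IRG points of both groups cover about the same range.

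The genes upstream of the members did not pass the test. Of 21 interferon genes, 6 were found in the table and the other 15 were not analysed here. Ifng, Ifnl2 and Ifnl3 were listed at 0 in all 8 libraries, and Ifnb1 was listed at 0 in all but KO 3, where it was at 0.0972 FPKM. Ifnk averaged 1.08 ± 0.564 FPKM in KO and 1.47 ± 0.792 FPKM in WT (SD, n = 4 each; adjusted p = 0.881). Of 6 receptor genes, 4 were tested and 0 called. Ifnar2, with the smallest p of these, was at 22.8, 31.2, 22.9 and 33.2 FPKM in KO, against 20.6, 18.9, 16.2 and 23.4 FPKM in WT. KO 1 and KO 3 lay just under WT 4, and the log2 change of 0.45 ± 0.20 had an adjusted p of 0.491.

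Feedback inhibitors and the sensors and adaptors that induce interferon also gave no calls. Of 6 feedback genes 5 were tested, and the smallest p belonged to Ptpn6, the phosphatase SHP-1 (log2 change 0.41 ± 0.24, adjusted p = 0.670). Of 14 upstream sensors and adaptors 7 were tested, with a median log2 change of 0.039 over all 14. The smallest p belonged to Myd88, the adaptor of Toll-like receptors, at 1.56, 1.75, 1.80 and 2.58 FPKM in KO, against 2.09, 2.89, 2.83 and 3.48 FPKM in WT (log2 change -0.39 ± 0.19, adjusted p = 0.556). Of the 14, 8 had positive and 6 negative changes. KO was higher without overlap in 2, beside 3.57% of all genes above 0, and both were too low to be tested. These were Tmem173 (STING), at 0.142 to 0.439 FPKM in KO, against 0 to 0.0524 FPKM in WT, and Tlr7, at 0.0477 to 0.177 FPKM in KO, against 0.00460 to 0.0225 FPKM in WT.

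A further list of 35 interferon-stimulated genes outside the 45 gave 0 calls among 17 tested. Changes were positive in 29 and negative in 6, with a median of 0.28, beside 51.5% positive over all genes above 0. KO was higher without overlap in 12 of the 35, beside 3.57% of those genes. An unadjusted p under 0.05 was reached by 4 of the 17 tested, beside 4.99% of all tested genes, with KO higher in each: Ifitm1 (log2 change 0.73, adjusted p = 0.369), Parp12 (0.48, 0.426), Lgals3bp (0.84, 0.428) and Adar (0.67, 0.473). Adar had a WT mean of 0.655 FPKM and entered the test only through KO. The GBP genes of this list, Gbp4, Gbp5, Gbp8 and Gbp9, had positive changes between 0.080 and 0.75, at means of at most 1.32 FPKM in KO and 0.370 FPKM in WT. Trim30a, at 0.813 to 1.81 FPKM in KO, against 0.0691 to 0.407 FPKM in WT, had the largest change of the list at 0.92.

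Markers of macrophages were higher in the same KO libraries. All 13 macrophage and Kupffer cell markers had a positive change, beside 51.5% of all genes above 0. KO was higher without overlap in 11 of them, beside 3.57% of those genes. Of the 11 tested, 11 had an unadjusted p under 0.05, against 4.99% of all tested genes, with 0 called after adjustment (limma). Of the 11 tested, 5 (Adgre1, Cd68, Vsig4, Csf1r and Marco) had a WT mean under 1 FPKM and passed the minimum for the test only through KO. The summed level of the 13 markers was 96.8, 23.6, 171 and 137 FPKM in KO 1 to 4, against 7.31, 9.29, 14.3 and 16.8 FPKM in WT 1 to 4. No KO library came down to the WT range of this sum. Clec4f, a marker of Kupffer cells, was at 21.6, 3.79, 31.4 and 17.04 FPKM in KO, against 2.26, 1.85, 3.27 and 2.92 FPKM in WT. Marco and Timd4 were listed at 0 in WT 1, and Timd4 also in WT 2. KO 2 was the lowest KO library for this sum, and it was also the lowest for the summed OAS level, which was 10.5, 5.47, 13.1 and 13.1 FPKM in KO, against 1.96, 2.26, 2.66 and 2.58 FPKM in WT. The summed GBP level ordered the libraries otherwise, at 11.6, 17.7, 9.41 and 26.0 FPKM in KO, against 6.23, 5.08, 4.90 and 9.57 FPKM in WT. The summed IRG level was 53.4, 66.3, 56.8 and 96.5 FPKM in KO, against 56.0, 59.2, 62.3 and 116 FPKM in WT. The part of the macrophage level in the members' values was not tested.

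**Figure D5:**
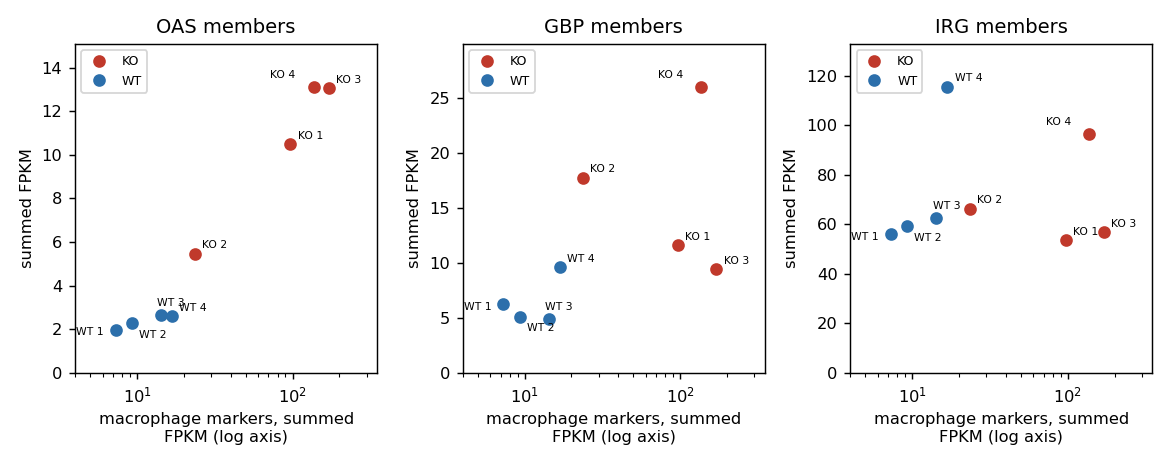
Summed FPKM of the OAS, GBP and IRG members (vertical axes) against the summed FPKM of 13 macrophage markers (horizontal log axes), 1 point per library, with KO in red and WT in blue. On the vertical axes KO 2 lies between WT and the other KO libraries for OAS and second highest for GBP. For IRG it lies within the WT range, as do KO 3 and KO 4.

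Markers of endothelial and stellate cells also had positive changes, in 8 of 8 and 7 of 7 genes, beside 51.5% of all genes above 0. KO was higher without overlap in 4 and 6 of them, beside 3.57% of all genes above 0. Each of the 5 and 2 tested had an unadjusted p under 0.05 (limma), beside 4.99% of all tested genes, and 0 were called. The summed endothelial level was 5.05 to 16.7 FPKM in KO, against 1.68 to 4.50 FPKM in WT, and the summed stellate level 9.14 to 22.4 FPKM in KO, against 1.93 to 6.09 FPKM in WT. Their part in the members' values was not tested. Markers of T and natural killer cells summed to 0.121 to 0.415 FPKM in KO, against 0.0430 to 0.168 FPKM in WT, and Klrb1c was listed at 0 in all 8 libraries. B and plasma cell markers summed to at most 0.756 FPKM in KO and 0.0796 FPKM in WT. Dendritic cell markers summed to at most 1.71 FPKM in KO and 0.834 FPKM in WT, with 6 positive changes and 1 negative among 7 genes. Siglech, a marker of plasmacytoid dendritic cells, was at most 0.149 FPKM in KO and listed at 0 in all WT libraries. Ccr9 of the same list went the other way, at 0.0983 to 0.161 FPKM in KO, against 0.223 to 0.253 FPKM in WT. Cholangiocyte markers summed to 0.527 to 6.82 FPKM in KO, against 0.269 to 0.792 FPKM in WT, with 1 of 5 tested (Spp1, adjusted p = 0.235) and Sox9 lower in every KO library than in any WT library. Ptprc, a marker of all leukocytes, was at 0.127 to 1.07 FPKM in KO, against 0.0161 to 0.290 FPKM in WT. Neutrophil markers reached 0.665 FPKM in KO and were listed at 0 in WT.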

How the data were processed

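RNA of 8 frozen liver samples of mice (4 KO, 4 WT) was sequenced. The authors deposited 1 table of FPKM values for 35638 genes, and per the submitters' processing notes TopHat, edgeR and the build mm10 were used, with no version or role given. No source used here states the annotation or the strand setting, so reads of overlapping opposite-strand genes cannot be told apart. Columns were matched to samples by name, and 0 columns belonged to other samples. FPKM values are not counts, so no count test was applied. Depth was estimated from the steps of low values, of which 47.3 to 50.2% lay within 0.1 of a whole read, so it is approximate. Sums of FPKM ran from 575751 to 621928 in KO and from 455456 to 604693 in WT.

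Values were taken as log2(FPKM + 1), without rescaling, for the 11266 genes with a mean of at least 1 FPKM over the 8 libraries. A two-sided limma fit on genotype (limma 3.58.1, R 4.3.3, with its intensity trend) was adjusted by Benjamini-Hochberg over all tested genes, with a threshold of 0.05. The fit was tested on simulated data with 100 genes raised by a log2 change of 1 and 100 by 2. It called 35 of the former and 87 of the latter, with 3 false among 125 calls. A member that was not called can therefore have changed. Named members were those past the threshold, those with the smallest p up to 16 in all, and the member of highest level in each role, 21 in total. In other pathway lists the gene with the smallest p was named, and further genes were chosen after their values were seen. The members and lists were chosen with earlier results of these data known. Loci come from GENCODE M21 and promoters from RefSeq (GRCm38.p6, which shares its coordinates with mm10). Shared sequence was counted as 50-base words of annotated transcripts. Plots used Python 3.11.15 with matplotlib 3.10.9.

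Alternatives were a pseudocount of 0.1 or 5 FPKM, no minimum or a minimum of 5 FPKM, 4 scalings (equal sums, equal protein-coding sums, quantile, median ratio), limma with array weights or without its trend, a block on the replicate number, leaving out each library, and leaving out WT 4 and KO 2 together. The result of 1 gene of the pathway lists is not reported here.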

Additional observations from a re-analysis of the deposited data

Results flagged for a closer look

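Among 98 groups of 4 libraries examined (the 45 members, Arid1a, the type I and gamma means and the macrophage sum, KO and WT apart), 10 held a library far from the other 3 by Dixon's criterion. Chance gives about 1 in 20 groups. KO 4 was high for Gbp2 at 6.19 FPKM and for Parp9 at 8.98 FPKM. KO 2 was high for Herc6 at 3.17 FPKM and for Xaf1 at 1.91 FPKM. WT 4 was the high library in the other 6 and had 73.3 FPKM of Iigp1, 13.3 FPKM of Ifi35, 5.50 FPKM of Parp14, 3.802 FPKM of Herc6 and 2.98 FPKM of Gbp6, and its mean log2(FPKM + 1) over the gamma members was 3.04.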

How the results depend on the processing

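The call of 3 members as higher in KO was sensitive to processing, and calls of members as lower stayed at 0 in every alternative run. The count was 4 with equal protein-coding sums, quantile normalization or median ratio scaling, 2 with a pseudocount of 0.1 FPKM or without WT 4 and KO 2 together, 1 with a pseudocount of 5 FPKM, a minimum of 5 FPKM or the replicate block, 0 without a minimum, and 0 to 4 when 1 library was left out (0 without KO 1, KO 3, KO 4 or WT 3, 1 without WT 1, WT 2 or WT 4, and 4 without KO 2). Without a minimum, 27571 genes were tested and the adjusted p was 0.0695 for Irf7, 0.0879 for Oas1a and 0.101 for Gbp2. Members free of overlap numbered 16 to 22 when 1 library was left out and 29 without WT 4 and KO 2. Groups of fewer libraries separate more easily in any gene, and no share over all genes is given for them. WT 4 was also the highest WT library in 32 of 45 members and KO 2 the lowest KO library in 20. The rise of this count is therefore not read as a stronger difference. With pseudocounts of 0.1 and 5 FPKM the type I median was 0.77 and 0.20 and the gamma median 0.66 and 0.27, and the medians ranged from 0.38 to 0.60 (type I) and from 0.35 to 0.68 (gamma) when 1 library was left out. Over all genes, 20 to 90 were higher and 14 to 44 lower when 1 library was left out, 27 were higher with a pseudocount of 5 FPKM, 26 lower without a minimum, 14 higher and 13 lower with a minimum of 5 FPKM, and 71 higher without WT 4 and KO 2. The log2 change of Arid1a ranged from -0.78 to -0.47 when 1 library was left out. Signs turned for Stat2 (-0.0435 with equal sums, and from -0.0427 without KO 3 to 0.158 without KO 2) and Ifi35 (from -0.223 without WT 3 to 0.12 without WT 4, 0.0087 without KO 2 and 0.25 without KO 2 and WT 4), and the cause was not tested. When 1 library was left out signs also turned for Irf1, Herc6, Ddx58, Dhx58, Eif2ak2, Parp9, Parp14 and Igtp, and the 10 members had log2 changes of at most 0.24 in size.

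The labels share replicate numbers but state no pairing, so the numbers were not taken as pairs. Deviations of same-numbered libraries correlated at 0.096, -0.067, 0.015 and 0.25, beside -0.18 to 0.13 for KO and WT libraries of different numbers. The highest value, 0.25, was that of KO 4 with WT 4. With the replicate block 16 genes were higher and 8 lower, and Irf7 kept its call (adjusted p = 0.0368), against 0.0732 for Gbp2 and 0.113 for Oas1a. An ISRE with 1 mismatch was in 96.8% of member promoters.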
